A study of Homo sapiens with 9 samples.

Results

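The thioredoxin and peroxiredoxin system of A549, a cell line from a human lung adenocarcinoma, was followed through 10 genes: TXN, TXN2, TXNRD1, TXNRD2, SRXN1, PRDX1, PRDX2, PRDX3, PRDX4 and PRDX6. Every probe set that the array's annotation table assigns to exactly 1 of these genes was taken, which gave 19 of the 41091 single-gene probe sets (10 of 19775 genes). The 3 groups were cells transfected with an siRNA against Nrf2 mRNA (Nrf2 siRNA), cells transfected with a non-targeting siRNA (NS siRNA), and cells given the transfection reagent Lipofectamine 2000 alone (mock). Each siRNA was given at 25 nM, cells were harvested 96 h after transfection, and each group holds 3 biological replicates, each on its own oligonucleotide array. All groups are of 1 cell line and all received the reagent; the series has 1 siRNA group against Nrf2 and no rescue, so loss of NRF2 and off-target effects of that siRNA cannot be told apart. Expression is given on the log2 scale, so a difference of 1 is 2-fold.

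Thioredoxin (TXN in the cytosol and nucleus, TXN2 in mitochondria) is a small protein that reduces disulfides in other proteins. It is recharged by a thioredoxin reductase (TXNRD1 in the cytosol, TXNRD2 in mitochondria), a selenoprotein that draws its electrons from NADPH. Peroxiredoxins are peroxidases whose reactive cysteine removes hydrogen peroxide; most are reduced by thioredoxin, and when that cysteine is overoxidised, sulfiredoxin (SRXN1) repairs it. NRF2, encoded by NFE2L2, is the transcription factor of the antioxidant response, which acts through antioxidant response elements; A549 cells are known for a KEAP1 defect that keeps NRF2 active.

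Promoter sequence is shown for the 3 genes that fell most, to set beside their values. RefSeq windows (GRCh38.p14) of 250 bases before and 50 after a gene start were matched by symbol for 7 of the 10 genes, 10 windows in all; TXN2, PRDX1 and PRDX6 were not matched. Each line below gives the 150 bases directly before the start, 5′ to 3′ on the gene's strand. Capitals mark matches that lie wholly within the line, on either strand, to the core of the antioxidant response element (TGACNNNGC), to the TATA box (TATAAA) or to the GC box (GGGCGG).
TXNRD1, first start, plus strand, chr12:104215629-104215778: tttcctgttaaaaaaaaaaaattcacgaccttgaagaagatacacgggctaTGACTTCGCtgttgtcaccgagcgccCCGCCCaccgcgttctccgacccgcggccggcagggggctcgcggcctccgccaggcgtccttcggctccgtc
TXNRD1, second start, plus strand, chr12:104286882-104287031: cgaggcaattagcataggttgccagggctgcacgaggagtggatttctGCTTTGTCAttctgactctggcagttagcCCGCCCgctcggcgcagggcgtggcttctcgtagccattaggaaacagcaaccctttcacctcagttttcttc
SRXN1, minus strand, chr20:653201-653350: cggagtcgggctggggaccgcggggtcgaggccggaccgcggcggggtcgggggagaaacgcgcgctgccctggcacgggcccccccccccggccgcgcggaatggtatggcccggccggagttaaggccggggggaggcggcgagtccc
TXN, minus strand, chr9:110256508-110256657: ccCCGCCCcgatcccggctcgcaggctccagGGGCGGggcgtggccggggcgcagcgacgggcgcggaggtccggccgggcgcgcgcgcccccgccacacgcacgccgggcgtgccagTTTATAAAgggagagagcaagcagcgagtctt

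The TGACNNNGC core was found in 2 of the 10 windows, and both belong to TXNRD1. At the first start it reads TGACTTCGC and begins 99 bases before the start; another copy, TGACGGAGC on the opposite strand, begins 8 bases before it and runs on past the end of the printed line, so it is not in capitals. At the second start it reads TGACAAAGC on the opposite strand and begins 102 bases before the start. Of all 35116 RefSeq windows of this length, 13.3% hold the core, so a match is common and is a description of the letters only. Response elements outside these windows, or with other core letters, were not searched for, so a gene without a match may still have one. The related AP-1 site TGACTCA, which can overlap the core, was in none of the members' windows and in 4.95% of all windows. TXN holds a TATAAA, 30 bases before its start (11.5% of all windows hold one), overlapped by a reverse match at 32. GGGCGG, present in 45.0% of all windows, was in the windows of TXN and TXNRD1 and not in that of SRXN1.

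Array medians lay between 7.51 and 7.57, and the median standard deviation between replicates was 0.0732. The siRNA target NFE2L2 stood at 10.12, 10.32 and 10.30 on the Nrf2 siRNA arrays, against 12.09, 12.03 and 12.15 on the NS siRNA arrays and 12.07, 11.92 and 11.98 on the mock arrays (probe set 201146_at), which left 27.9% of the NS siRNA level. Of its other probe sets, 1567013_at was left at 45.2% of NS siRNA (limma adjusted p = 6.83e-08) and 1567015_at at 92.9% (limma adjusted p = 0.172). All 6 epithelial markers examined were above the array median on all 9 arrays. So were 2 of 3 leukocyte markers (CD3E and CD14), 2 of 3 endothelial markers (PECAM1 and VWF) and 1 of 4 fibroblast markers (DCN), while PTPRC, CDH5 and PDGFRB, 1 of each list, were below it on all 9; the median is no threshold of detection. The summed log2 level of the 6 epithelial markers was 74.89 to 75.74 after Nrf2 siRNA, against 73.28 to 73.48 in NS siRNA and 71.06 to 71.49 in mock. Of these 6, KRT7 went the other way, averaging 13.60 after Nrf2 siRNA, against 13.77 in NS siRNA and 13.81 in mock. The largest gain was that of KRT19, at 12.61, 11.46 and 10.66 in the same order. The sum of 4 fibroblast markers was 32.33 to 32.44 after Nrf2 siRNA, against 29.41 to 29.56 in NS siRNA and 29.71 to 30.36 in mock. That of 3 leukocyte markers was 24.36 to 24.70 after Nrf2 siRNA, against 23.49 to 23.80 in NS siRNA and 23.20 to 23.57 in mock. For the 3 endothelial markers the sums overlapped, at 21.97 to 22.42, 22.04 to 22.34 and 21.87 to 22.13 in the same order. Within the fibroblast and leukocyte lists LUM averaged 9.32 after Nrf2 siRNA, against 6.31 in NS siRNA and 7.01 in mock, and CD14 averaged 8.83, against 7.87 in NS siRNA and 7.84 in mock. The other markers of these lists differed little between groups. In the same order, DCN averaged 8.12, 8.18 and 8.09, COL1A2 7.64, 7.64 and 7.62, and PDGFRB 7.29, 7.35 and 7.36. CD3E averaged 8.39, 8.49 and 8.40, and PTPRC 7.26, 7.26 and 7.13. The part of these markers in the results was not tested.

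Sulfiredoxin, the cytosolic thioredoxin reductase, cytosolic thioredoxin and PRDX1 fell after Nrf2 siRNA against both controls, and the mitochondrial forms TXN2 and TXNRD2 did not pass the test. SRXN1 fell to 25.9% of its NS siRNA level, TXNRD1 to 30.3%, TXN to 52.0% and PRDX1 to 72.3%. Tests were made with limma over all single-gene probe sets, with Benjamini-Hochberg adjustment and a threshold of 0.05. Against NS siRNA, 8 of the 19 member probe sets fell and 0 rose, where 21.5% of all single-gene probe sets fell and 20.2% rose. Against mock, 7 of 19 fell and 0 rose, where 13.3% of all fell and 15.2% rose. None of the members was higher in either comparison at an unadjusted p below 0.05 in limma. By the brightest probe set of each gene, 6 of 10 genes fell against NS siRNA (24.7% of all genes) and 5 of 10 against mock (15.5%). Among the 6, PRDX3 and PRDX6 lost the call against NS siRNA in 6 and 12 of the 17 alternatives described below. The median difference over the 19 was -0.10 against each control, beside -0.04 and -0.01 over all single-gene probe sets. A difference of 2-fold or more downward was seen in 2 of the 19, SRXN1 and the bright TXNRD1 probe set, against either control, and in 0.560% of all against NS siRNA and 0.377% against mock.

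**Figure D1:**
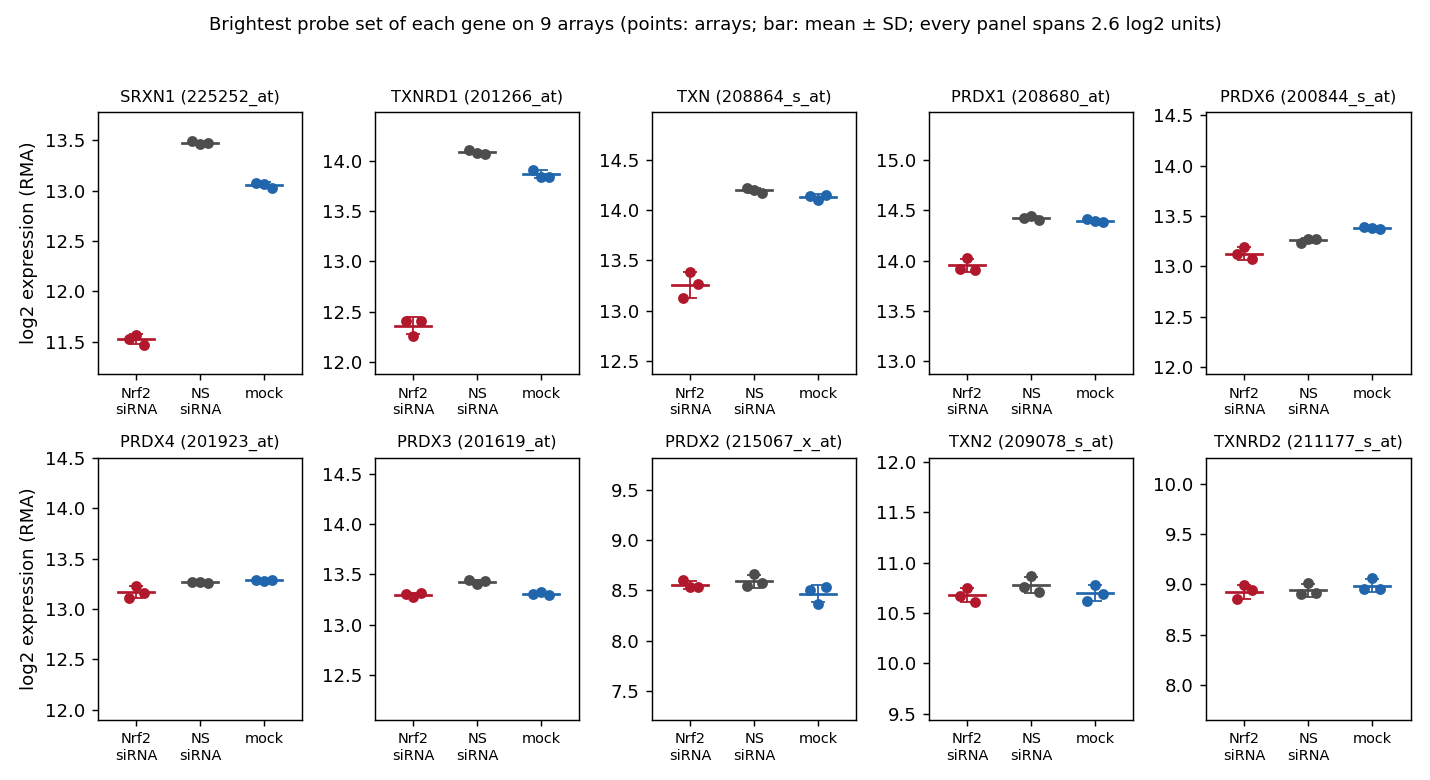
Log2 expression (RMA) of the brightest probe set of each of the 10 genes on every array, for Nrf2 siRNA, NS siRNA and mock; points are arrays, horizontal lines means and error bars SD (n = 3), and every panel spans the same number of log2 units. SRXN1, TXNRD1, TXN and PRDX1 lie lower on all 3 Nrf2 siRNA arrays than on the 6 control arrays, with gaps far larger than the spread, whereas TXN2 and TXNRD2 overlap.

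SRXN1, which returns overoxidised peroxiredoxins to their working state, had the largest difference among the members. Its single probe set (225252_at) read 11.53, 11.57 and 11.47 on the Nrf2 siRNA arrays, against 13.49, 13.46 and 13.47 on the NS siRNA arrays and 13.08, 13.07 and 13.03 on the mock arrays. The 3 groups did not overlap, and replicates within a group differed by 0.10 or less. The difference was -1.95 ± 0.05 (SE, limma adjusted p = 2.15e-11) against NS siRNA and -1.54 ± 0.05 (limma adjusted p = 2.04e-10) against mock. The 2 controls also differed: NS siRNA cells had 0.41 ± 0.05 more than mock cells (limma adjusted p = 2.36e-05), so the level left was 25.9% of NS siRNA but 34.5% of mock.

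TXNRD1, the cytosolic reductase that recharges TXN, has 2 probe sets that did not behave alike. The bright one (201266_at) read 12.41, 12.26 and 12.41 on the Nrf2 siRNA arrays, against 14.10, 14.08 and 14.07 in NS siRNA and 13.91, 13.84 and 13.84 in mock. Again no group overlapped another. It differed by -1.72 ± 0.05 (SE, limma adjusted p = 1.08e-10) from NS siRNA and by -1.50 ± 0.05 (limma adjusted p = 6.65e-10) from mock, and NS siRNA was above mock by 0.22 ± 0.05 (limma adjusted p = 0.00756). The other probe set (1561080_at) read 4.60, 4.48 and 4.54 after Nrf2 siRNA, against 4.56, 4.64 and 4.39 in NS siRNA and 4.50, 4.61 and 4.40 in mock. It lay below the array median on all 9 arrays and the groups overlapped, with a difference of 0.01 ± 0.07 from NS siRNA (95% interval -0.14 to 0.16; limma adjusted p = 0.932). The promoter lines given earlier show both RefSeq starts of this gene; which transcript each probe set reads was not tested.

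TXN fell in both of its probe sets. The bright one (208864_s_at) read 13.12, 13.38 and 13.26 on the Nrf2 siRNA arrays, against 14.22, 14.20 and 14.17 in NS siRNA and 14.14, 14.10 and 14.15 in mock. The difference was -0.94 ± 0.06 (SE, limma adjusted p = 7.50e-08) from NS siRNA and -0.88 ± 0.06 (limma adjusted p = 3.13e-07) from mock, which left 52.0% and 54.4% of the control levels. The Nrf2 siRNA arrays spread more than the controls, with an SD of 0.132 against 0.0213 in NS siRNA and 0.025 in mock, yet the highest of them lay well below the lowest control. The second probe set (216609_at) read 9.85, 9.45 and 9.22 after Nrf2 siRNA, against 10.28, 10.15 and 10.15 in NS siRNA and 10.39, 10.13 and 10.34 in mock. It differed by -0.68 ± 0.12 (limma adjusted p = 6.61e-04) and -0.77 ± 0.12 (limma adjusted p = 4.23e-04), with no overlap either. NS siRNA and mock did not differ past the threshold in either TXN probe set.

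The mitochondrial forms gave small values. TXN2, mitochondrial thioredoxin, read 10.67, 10.75 and 10.61 after Nrf2 siRNA, against 10.76, 10.87 and 10.71 in NS siRNA and 10.62, 10.78 and 10.69 in mock (209078_s_at), and all groups overlapped. Its differences from NS siRNA were -0.10 ± 0.06 (95% interval -0.23 to 0.03; limma adjusted p = 0.182) and, in 209077_at, -0.10 ± 0.05 (-0.21 to 0.01; limma adjusted p = 0.152). With quantile normalization of the deposited values both passed the threshold, at -0.14 and -0.15 (limma adjusted p = 0.0424 and 0.011).

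TXNRD2, the mitochondrial reductase, read 8.85, 8.99 and 8.94, against 8.90, 9.01 and 8.91 in NS siRNA and 8.95, 9.06 and 8.95 in mock (211177_s_at). Its difference from NS siRNA was -0.01 ± 0.06 (95% interval -0.13 to 0.11; limma adjusted p = 0.911). The other probe set (210803_at) differed by -0.12 ± 0.05 (limma adjusted p = 0.0782); it passed without NS siRNA replicate 1 (limma adjusted p = 0.0403) and among probe sets above the median level (limma adjusted p = 0.0458). Against mock no probe set of TXN2 or TXNRD2 passed, with differences between -0.07 and -0.02.

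Chosen after the values were seen, 3 pairs of a cytosolic gene and a mitochondrial relative are given as a description. The value is the log2 change of the cytosolic gene minus that of the mitochondrial one. Exact permutation tests were run, but their p values are not given, since the pairs were chosen from these same values. Against NS siRNA this value was -1.71 for TXNRD1 and TXNRD2, -0.84 for TXN and TXN2, and -0.34 for PRDX1 and mitochondrial PRDX3. Against mock it was -1.45, -0.86 and -0.43 for the same pairs. PRDX2, also cytosolic, did not share this in its brightest probe set, which differed by -0.04 from NS siRNA, beside -0.13 for PRDX3. Its dimmer probe sets differed from NS siRNA by -0.34 (211658_at), -0.06 (39729_at) and 0.00 (201006_at).

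Among the peroxiredoxins PRDX1, the abundant cytosolic form of the class that thioredoxin reduces, changed most. It read 13.92, 14.03 and 13.91 on the Nrf2 siRNA arrays, against 14.42, 14.44 and 14.40 in NS siRNA and 14.41, 14.39 and 14.38 in mock (208680_at). The Nrf2 siRNA arrays were below all controls, and the 2 controls overlapped. The difference was -0.47 ± 0.05 (SE, limma adjusted p = 4.25e-06) from NS siRNA and -0.44 ± 0.05 (limma adjusted p = 1.46e-05) from mock.

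PRDX6, a peroxiredoxin with a single catalytic cysteine that glutathione rather than thioredoxin reduces, showed smaller differences that depended on the probe set and the control. 200844_s_at read 13.12, 13.19 and 13.07 after Nrf2 siRNA, against 13.23, 13.27 and 13.27 in NS siRNA and 13.39, 13.38 and 13.37 in mock. It fell against mock by 0.25 ± 0.05 on the log2 scale (SE, limma adjusted p = 0.00133). Against NS siRNA the difference was -0.13 ± 0.05 (limma adjusted p = 0.0428), a call that was lost without any 1 of the 6 control arrays and without Nrf2 siRNA replicate 1 or 3, and in 12 of 17 alternatives in all (limma adjusted p = 0.00222 to 0.143 over the 17). 200845_s_at read 12.44, 12.49 and 12.47, against 12.41, 12.41 and 12.42 in NS siRNA and 12.62, 12.66 and 12.68 in mock. Here NS siRNA was below mock by 0.24 ± 0.04 (limma adjusted p = 0.00103), Nrf2 siRNA was below mock by 0.19 ± 0.04 (limma adjusted p = 0.00513), and Nrf2 siRNA and NS siRNA differed by 0.05 ± 0.04 (limma adjusted p = 0.342).

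PRDX3 in mitochondria read 13.30, 13.27 and 13.31 after Nrf2 siRNA, against 13.44, 13.40 and 13.43 in NS siRNA and 13.30, 13.32 and 13.29 in mock (201619_at). In this probe set only NS siRNA stood apart: the difference from NS siRNA was -0.13 ± 0.04 (SE, limma adjusted p = 0.0244), and that from mock -0.01 ± 0.04 (limma adjusted p = 0.873). The call against NS siRNA was lost without NS siRNA replicate 1 or 3 (limma adjusted p = 0.0661 and 0.0625), without Nrf2 siRNA replicate 2 (0.0603), and with equal array medians or quantile normalization (0.0749 and 0.0726). The dimmer PRDX3 probe set (209766_at) differed by -0.08 ± 0.05 from NS siRNA (limma adjusted p = 0.176) and by -0.10 ± 0.05 from mock (limma adjusted p = 0.129). Its 3 Nrf2 siRNA arrays lay below all 6 controls, by a gap of 0.01.

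PRDX4, the secretory-pathway peroxiredoxin, read 13.11, 13.23 and 13.16 after Nrf2 siRNA, against 13.27, 13.27 and 13.26 in NS siRNA and 13.29, 13.28 and 13.29 in mock (201923_at). The Nrf2 siRNA arrays lay below all 6 controls, but the differences of -0.10 ± 0.05 and -0.12 ± 0.05 did not pass (limma adjusted p = 0.115 and 0.0747). With an eBayes trend and robust variances both passed (limma adjusted p = 0.015 and 0.00494), and the mock comparison also passed without Nrf2 siRNA replicate 2 (0.0352) and among probe sets above the median level (0.0356). In all, 8 of the 19 member probe sets had all 3 Nrf2 siRNA arrays below the 6 controls, where 14.0% of all single-gene probe sets did. The gap to the lowest control was only 0.04 in PRDX6 200844_s_at, 0.03 in PRDX4 and 0.01 in PRDX3 209766_at. In the others it was 0.27 to 1.46.

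PRDX2, a cytosolic relative of PRDX1, was read by 4 probe sets, 3 of them below the array median on all 9 arrays. The brightest (215067_x_at, of a type that can also bind related transcripts) read 8.60, 8.53 and 8.53 after Nrf2 siRNA, against 8.54, 8.66 and 8.57 in NS siRNA and 8.50, 8.37 and 8.53 in mock. It differed by -0.04 ± 0.06 from NS siRNA (SE, limma adjusted p = 0.624). Of the dim ones, 211658_at fell against NS siRNA by 0.34 ± 0.08 on the log2 scale (limma adjusted p = 0.00338) but differed from mock by -0.12 ± 0.08 (limma adjusted p = 0.279). 201006_at differed from mock by 0.10 ± 0.06 (limma adjusted p = 0.252), or by 0.16 without Nrf2 siRNA replicate 1 (limma adjusted p = 0.0483). The last, 39729_at, differed from NS siRNA by -0.06 ± 0.05 (limma adjusted p = 0.373).

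**Figure D2:**
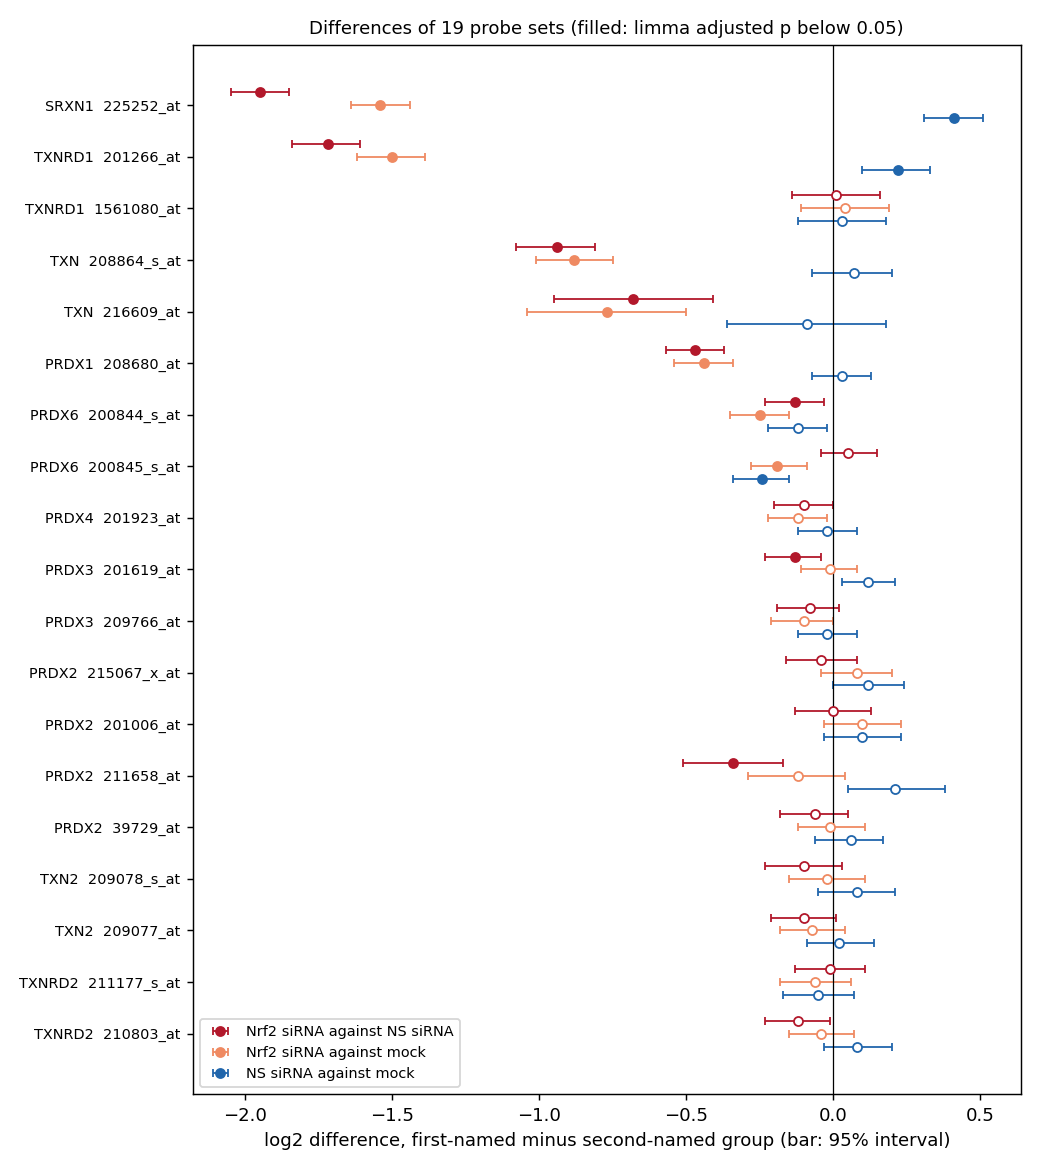
Log2 difference of the 19 probe sets in 3 comparisons, the first-named group minus the second, with 95% intervals from limma; filled points have a limma adjusted p below 0.05. SRXN1, the bright TXNRD1 probe set, both TXN probe sets and PRDX1 lie left of 0 against both controls, while TXN2, TXNRD2 and most PRDX2 probe sets have intervals that reach or come close to 0.

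Counting a fall only where it passed against both controls, 6 probe sets of 5 genes remained: SRXN1, TXNRD1 (201266_at), both of TXN, PRDX1 and PRDX6 (200844_s_at), against 9.58% of all single-gene probe sets. The 2 comparisons share the Nrf2 siRNA arrays. Between the controls, NS siRNA against mock, 2 of the 19 rose (SRXN1 and TXNRD1) and 1 fell (PRDX6, 200845_s_at), where 12.4% of all rose and 13.5% fell. The fall in SRXN1 was 3.86-fold with NS siRNA as the control and 2.90-fold with mock; that in TXNRD1 was 3.30-fold and 2.84-fold. For TXN (1.92-fold and 1.84-fold) and PRDX1 (1.38-fold and 1.36-fold) the controls gave nearly the same value.

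Genes related to this system by likeness, by use or binding of thioredoxin, or by a part in peroxide handling moved in both directions. Of 30 measured genes in 4 lists, each by its brightest probe set, 9 fell and 13 rose against NS siRNA, where 24.7% of all genes fell and 20.4% rose. Against mock 10 fell and 9 rose, where 15.5% fell and 15.6% rose. The median difference over the 30 was 0.06 against NS siRNA and 0.00 against mock, beside -0.05 and -0.02 over all genes.

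Of the 4 glutaredoxins, small proteins that use glutathione for the same kind of reduction, 3 fell against each control. GLRX3, a cytosolic form that handles iron-sulfur clusters, stood at 12.14 ± 0.03 (SD, n = 3) after Nrf2 siRNA, against 12.83 ± 0.05 in NS siRNA and 12.54 ± 0.03 in mock. It differed by -0.70 from NS siRNA and by -0.40 from mock, but only 3 and 2 of its 4 probe sets had those signs. Mitochondrial GLRX2 differed by -0.35 and -0.41 and mitochondrial GLRX5 by -0.26 and -0.17 (limma adjusted p = 0.0124 at most for the 3 genes). GLRX itself rose against NS siRNA by 0.55 ± 0.05 (SE, limma adjusted p = 1.44e-06) and differed from mock by 0.06 ± 0.05 (limma adjusted p = 0.461), with NS siRNA 0.49 below mock on the log2 scale.

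Of 15 thioredoxin-like genes, 2 fell and 7 rose against NS siRNA, and 4 fell and 3 rose against mock. TXNDC12, an endoplasmic reticulum thioredoxin-fold protein, rose against both: it stood at 12.64 ± 0.01 (SD, n = 3) after Nrf2 siRNA, against 11.89 ± 0.04 in NS siRNA and 12.08 ± 0.01 in mock. TMX4, a membrane-bound relative, rose by 1.23 against NS siRNA and by 0.22 against mock, with 2 and 1 of its 3 probe sets of that sign. For NXN, nucleoredoxin, the difference was -1.01 ± 0.06 from NS siRNA (SE, limma adjusted p = 5.08e-08) but -0.14 ± 0.06 from mock (limma adjusted p = 0.119), and NS siRNA was 0.87 above mock. TXNDC15 likewise rose by 0.53 against NS siRNA and differed by -0.02 from mock, while NS siRNA differed from mock by -0.55. TXNIP, the protein that binds and inhibits thioredoxin, differed by -0.12 from NS siRNA and by 0.03 from mock and passed neither test.

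Of 8 genes whose products use or bind thioredoxin, 3 fell and 4 rose against NS siRNA, and 3 fell and 3 rose against mock. Both main subunits of ribonucleotide reductase, the DNA precursor enzyme that takes electrons from thioredoxin, fell against both controls: RRM2 by 0.84 and 0.56 and RRM1 by 0.58 and 0.46 on the log2 scale, in 2 of 2 probe sets each. MSRB2, a mitochondrial methionine sulfoxide reductase, rose by 0.64 and 0.23, with 2 and 1 of 3 probe sets of that sign. MSRB3 rose by 0.50 against NS siRNA and differed by 0.01 from mock. NS siRNA differed from mock by -0.41 for MSRB2 and by -0.50 for MSRB3. MSRB1, a selenoprotein of this family as TXNRD1 and TXNRD2 are of theirs, differed by -0.24 and -0.18 and fell in both tests. The 3 sestrins, stress-induced proteins linked to peroxiredoxin repair, all rose against mock: SESN1 by 0.46, SESN2 by 0.49 and SESN3 by 0.42. The controls differed for these genes too, each past the threshold: NS siRNA cells had 159% of the mock level of SESN1, 125% of that of SESN2 and 49.8% of that of SESN3. Against NS siRNA, SESN3 rose by 1.42, SESN1 fell by 0.21 on the log2 scale and SESN2 differed by 0.16 (limma adjusted p = 0.0649).

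**Figure D3:**
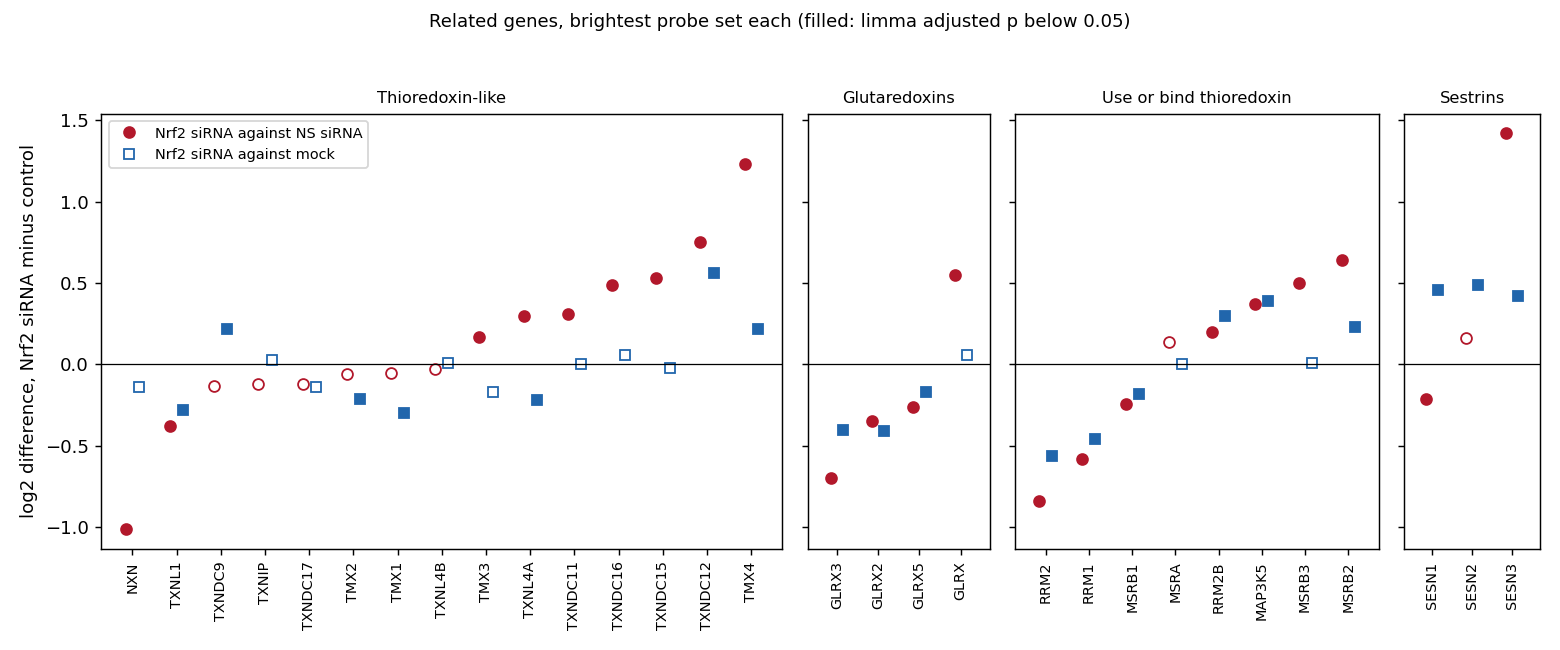
Log2 difference of 30 related genes after Nrf2 siRNA, against NS siRNA (circles) and against mock (squares), by the brightest probe set of each gene; filled symbols have a limma adjusted p below 0.05. Values run from -1.01 (NXN) to 1.42 (SESN3) against NS siRNA, and many circles and squares of 1 gene stand apart.

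To place the 4 genes that fell most among all genes, the root mean square difference of log2 values, each centred on its own mean over the 9 arrays, was taken against 19774 other genes. This is a description of likeness over arrays that share 3 groups. Closest to SRXN1 were ACKR3, an atypical chemokine receptor (0.0994), then TXNRD1 (0.118) and the secreted WNT enhancer RSPO3 (0.122). Closest to TXNRD1 were the proteoglycan gene SRGN (0.109), SRXN1 (0.118) and SPP1, osteopontin (0.127). SRXN1 and TXNRD1 were thus each the second-nearest gene to the other. ACKR3 was also higher in NS siRNA than in mock, by 0.50, beside 0.41 for SRXN1, whereas SRGN and SPP1 differed by 0.03 and -0.07.

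The nearest genes to TXN were HTATIP2 (0.0518), the tRNA methyltransferase gene FTSJ1 (0.0618) and AHCYL1 (0.0662), with differences of -0.98, -0.99 and -0.83 from NS siRNA. Those of PRDX1 were the complex I assembly factor NDUFAF8 (0.0201), the cyclophilin PPID (0.0257) and ZBTB8OS (0.0276), with differences of -0.49, -0.51 and -0.48. All probe sets of these 6 genes had the same sign except for PPID, with 2 of 3.

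**Figure D4:**
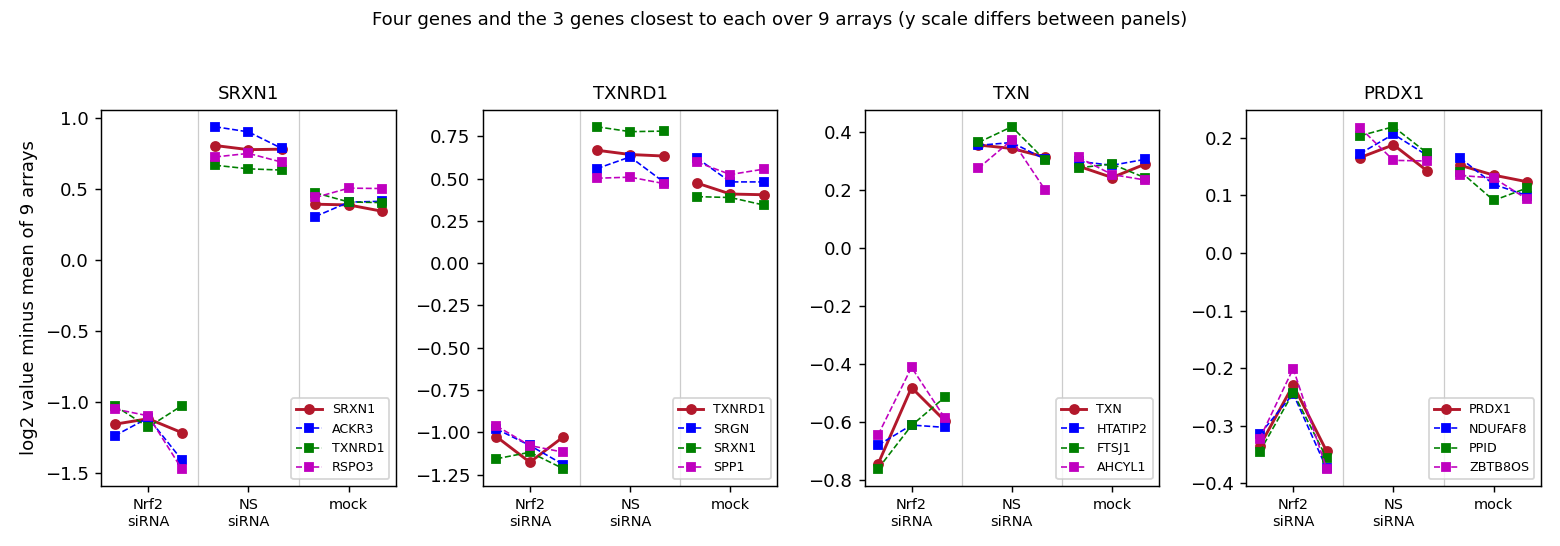
Log2 values, centred on the mean of the 9 arrays, of SRXN1, TXNRD1, TXN and PRDX1 (solid lines) and of the 3 genes closest to each (dashed lines), by array within Nrf2 siRNA, NS siRNA and mock; the y scale differs between panels. SRXN1 and TXNRD1 drop by more than 1 below their mean after Nrf2 siRNA and sit higher in NS siRNA than in mock.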

How the data were processed

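Labelled cRNA from total RNA of 9 A549 samples was hybridised to oligonucleotide arrays (54675 probe sets each). The authors deposited RMA values on the log2 scale, with RMA named in the submitters' processing notes; its version and options are not given there. All 9 columns were matched by sample accession. The annotation table gave exactly 1 gene to 41091 probe sets, with symbols updated through RefSeq. The members and gene lists were chosen with earlier results of these data known. Genes were named by rule: all members, NFE2L2, up to 4 genes of each related list by adjusted p against NS siRNA, and the 3 closest genes; TXNIP and MSRB1 were added from the lists after their values were seen. TXNRD3, TXNDC5 and PRDX5 of the lists were not analysed here.

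One limma 3.58.1 model under R 4.3.3, run with lmFit and then eBayes at their defaults and with a mean for each of the 3 groups, was fitted to all single-gene probe sets over the 9 arrays (6 residual degrees of freedom, prior 6.2). P values are two-sided and Benjamini-Hochberg adjusted over 41091 probe sets, threshold 0.05. The SD is over arrays, the SE the model's. The number of arrays limits the precision; detection calls and scan batches were not used here. The fit was tested on simulated data. Alternatives were 2 scalings, a level filter, 1 probe set a gene, trended robust variances, 2-group fits, the replicate number as a block, each array left out, and a threshold of 0.01.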

Additional observations from a re-analysis of the deposited data

How the results depend on the processing

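Under the 17 alternatives, 6 to 9 member probe sets fell against NS siRNA (6 to 7 when 1 array was left out) and 5 to 8 against mock; SRXN1, the bright TXNRD1 probe set, both TXN probe sets and PRDX1 kept their direction and call against both controls in every alternative that held them. Over all 19 probe sets and 3 comparisons, 893 recomputed values kept their call, 18 lost it, 19 gained it and 0 reversed. Members higher against mock numbered 0 to 1 with 1 array left out. In NS siRNA against mock the falling members numbered 2 with quantile normalization, 2 with the level filter, 2 with trended robust variances and 0 with 1 probe set a gene; with that last choice, which tests 19775 genes, 9422 genes in all differed between Nrf2 siRNA and NS siRNA, 6530 between Nrf2 siRNA and mock and 6082 between NS siRNA and mock, instead of 17148, 11744 and 10648 probe sets. With the replicate number as a block, 8 and 7 members fell against NS siRNA and mock. Same-numbered samples correlated in their deviations from the group mean at -0.188 to 0.189, and differently numbered ones at -0.305 to 0.159. With 3 arrays a group this does not settle whether the numbers pair samples, and the main fit used no pairing. The block changed the call of 1 member, PRDX2 211658_at in NS siRNA against mock (adjusted p = 0.0136). No measure of background was used here, so how far the dim PRDX2 and TXNRD1 probe sets read signal was not tested.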
